A study of Mus musculus with 141 samples.

Results

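Of the 24423 genes listed in each file, 75 encoded named parts of respiratory chain complexes I, II and III or of the ATP synthase (complex V). Members were all gene names that begin with Nduf, Uqcr or Atp5, together with *Sdha*, *Sdhb*, *Sdhc* and *Sdhd*. The names gave 46 genes for complex I, 4 for complex II, 8 for complex III and 17 for complex V. The rule reads names only. The files list 1 transcript name for 61 of the 75 genes and more than 1 for the other 14, and those 14 are described apart. Subunits made inside the mitochondrion carry other names and were not members.

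The libraries came from whole lung, kidney and liver of 1 male mouse from each of 47 Collaborative Cross (CC) strains, inbred lines that each carry a different mosaic of the same founder genomes. The mice were 8 to 12 weeks old, were fed the same wafer diet and had all spent 6 hours a day on weekdays in chambers of clear air, so that no group received an exposure agent. Each tissue therefore formed a group of 47 libraries, and the 3 tissues of a strain came from the same animal. Strain and individual mouse cannot be told apart, and only males were measured. In whole tissue, a larger share of cells rich in mitochondria and more RNA per cell cannot be told apart either.

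Expected counts summed to between 2829104 and 17585682 per lung library, 3046695 and 15028553 per kidney library and 1738046 and 42158453 per liver library. *Rn45s* and *Lars2*, a pair of genes that collect ribosomal RNA reads, took a median of 24.1% of counts in lung, 32.3% in kidney and 43.2% in liver, with a range of 0.206% to 90.5% over all libraries. The member genes together took a median of 0.377%, 1.51% and 0.602% of counts. Hepatocyte genes summed to at least 80473 CPM, the count scaled to a fixed library total, in every liver library, proximal tubule genes to at least 12548 CPM in every kidney library, and alveolar and airway epithelial genes to at least 7054 CPM in every lung library. The liver library of CC032 and the lung library of CC042 stood apart from the other tissues of their own strain. The deviations of the CC032 liver library from the liver mean correlated with those of its own kidney and lung libraries at -0.03 and 0.01 over all genes tested, and those of the CC042 lung library with its own kidney and liver libraries at 0.02 and 0.04. The median correlation within a strain was 0.21 for kidney and lung, 0.17 for liver and lung and 0.17 for kidney and liver.

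Complex I takes electrons from NADH and complex II takes them from succinate, and both hand them to ubiquinone. Complex III passes them on to cytochrome c. Complexes I and III pump protons across the inner mitochondrial membrane, and complex V lets the protons flow back through a rotating ring to make ATP. The proximal tubule of the kidney and the hepatocytes of the liver are dense with mitochondria and rely on this pathway for transport and synthesis.

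To compare levels between genes, TPM values were used, which correct the count for transcript length before scaling to a fixed total. *Atp5b*, the catalytic beta subunit of complex V, had the highest median TPM of the 75 genes in every tissue, at 736.5 in lung, 4078 in kidney and 1336 in liver. *Atp5a1*, the alpha subunit that alternates with beta in the same head, reached 533 TPM in lung, 2356 in kidney and 915 in liver. *Ndufa4*, named for complex I but now counted with cytochrome c oxidase, reached 462, 1974 and 922 TPM in the same order. At the other end, *Ndufs5*, an accessory subunit of complex I, was listed at a median of 0 TPM in all 3 tissues.

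Subunit genes with more than 1 transcript name were at lower TPM than those with 1 name. Assembly factors, *Ndufa4*, *Ndufa4l2*, *Atp5s* and *Atp5sl* were left out of this comparison, which leaves 63 subunit genes. The 50 subunit genes with 1 name had a median of 147 TPM in lung, 523 in kidney and 260 in liver. The 13 with more than 1 name had medians of 1.82, 7.03 and 7.2 TPM, and none of them ranked above 50th of the 75 genes in kidney. The difference lay between subunits that stand together in one complex. Among the core subunits of complex I, which carry electrons from NADH along a chain of iron-sulfur clusters, *Ndufv1*, *Ndufs3* and *Ndufs7* have 1 name each and had median kidney values of 489, 383 and 239 TPM. Of the core subunits with more than 1 name, *Ndufv2* had a median of 5.64 TPM in kidney, *Ndufs1* 1.86 TPM and *Ndufs8* 0.7 TPM. *Uqcrq* of complex III, with more than 1 name, had a median of 7.03 TPM in kidney beside 1122 TPM for *Uqcrb* in the same complex. The files were made from uniquely aligned reads, and the part of that step in this difference was not tested.

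**Figure D1:**
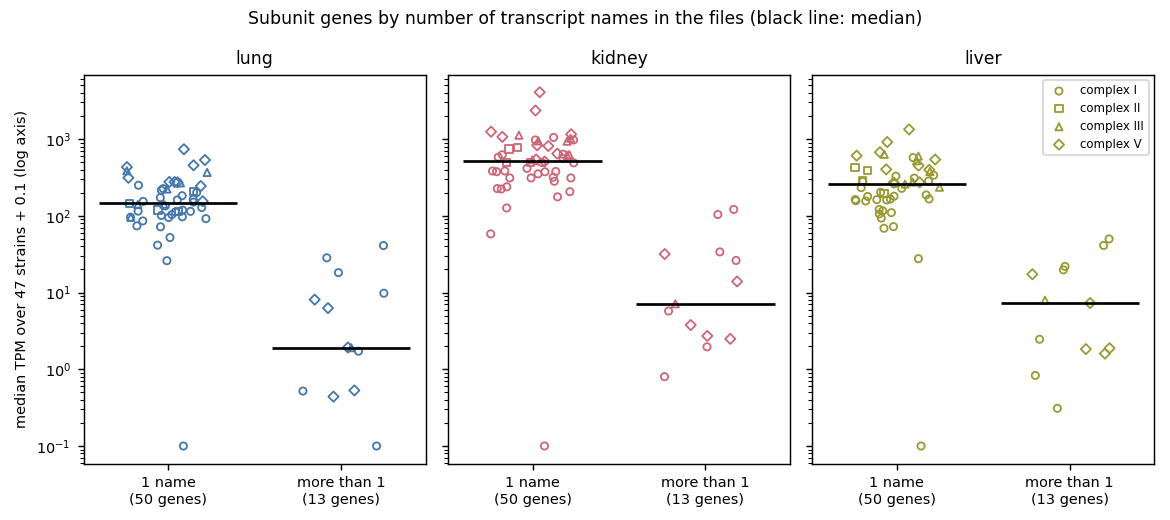
Median TPM of each subunit gene over 47 strains plus 0.1 on a log axis, by tissue, with genes of 1 transcript name on the left and of more than 1 on the right of each panel. Each point is 1 gene, its shape gives the complex and the black line is the median of the points, 523 TPM against 7.03 TPM in kidney.

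The c ring showed the same order within a single subunit. *Atp5g1*, *Atp5g2* and *Atp5g3* encode the same mature ring protein behind different import sequences. *Atp5g2*, with 1 transcript name, had a median of 276 TPM in lung, 510 in kidney and 273 in liver. *Atp5g1* had 0.34, 2.39 and 1.78 TPM, and *Atp5g3* had 0.43, 3.67 and 1.73 TPM, both with more than 1 name. Neither *Atp5g1* nor *Atp5g3* passed the filter on low counts.

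Being listed with more than 1 name was not the only mark of a low count. *Ndufs5* has 1 name, and its highest value in any library was 0.622 CPM. When the *Ndufs5* transcript was cut into every possible 50-base stretch, the read length of these libraries, 26.9% of the stretches were found at 1 place only in the reference genome. The stretch that begins at its start codon lies in an exon on the minus strand at chr4:123393273-123393322 (NCBIM37), and the same letters stand a further time at chr16:42955744-42955793. Of the *Ndufs5* stretches 0% were found in a coding transcript of another gene, and reads were mapped to transcripts as well. The part of the genome copy in the low count was not tested. The stretch is shown because its letters fit more than 1 place in the genome, and capitals mark the start codon.
Ndufs5: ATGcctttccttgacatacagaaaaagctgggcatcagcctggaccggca

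The share of single-place stretches did not order the counts of the members. A value was obtained for 63 members, of which 34 stood at 100% and 6 under 50%. *Atp5g2* stood at 0% and *Atp5l* at 10.6%, and both were among the well counted genes, with medians of 94.9 and 185.7 CPM in kidney. *Atp5g3* and *Ndufs8* stood at 100% and had medians of 0.856 and 0.214 CPM in kidney. Values of *Ndufs5*, *Atp5g1*, *Atp5g2*, *Atp5h*, *Atp5l* and *Uqcrb*, all under 50%, are therefore uncertain where reads could belong to a copy elsewhere.

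Both kidney and liver were compared with lung gene by gene, which asks where the transcripts of the chain were most abundant. Genes over 1 CPM in 30% or more of the libraries were tested with limma and voom weights, with strain as a block. A call needed q of at most 0.1 and a log2 fold change of 1 or more in either direction. CPM values are given after TMM scaling, which uses a trimmed mean of M-values. Of the 75 members 70 were tested, 60 of the 61 with 1 transcript name and 10 of the 14 with more. The 5 left out were *Ndufs5*, *Ndufs8*, *Atp5g1*, *Atp5g3* and *Atp5j*. Over all genes in the files, 55.5% of those with 1 name and 32.2% of those with more were tested.

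In kidney, 68 of the 70 members were higher than in lung, 1 was lower and 1 was not called. Over all 12127 genes tested, 20.6% were higher and 25.5% lower in kidney. The median log2 fold change of the members was 2.33, beside -0.04 over all genes tested, and their standard errors ran from 0.033 to 0.19. For 63 members kidney exceeded lung in every strain, a count that was not made over all genes. For 53 every kidney library exceeded every lung library, as it did for 12.5% of all genes. In liver, 65 members were higher than in lung, 1 was lower and 4 were not called, beside 23.9% higher and 31% lower over all genes. The median was 2.19, beside -0.06 over all genes. For 60 members liver exceeded lung in every strain, again with no count over all genes. For 52 every liver library exceeded every lung library, beside 14% of all genes.

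The scale mattered more for liver than for kidney. With total counts in place of TMM, the median over all genes moved to -0.46 for kidney against lung and to -1.44 for liver against lung. The members' medians were then 1.92 and 0.85, which is 2.38 and 2.28 above all genes. In kidney 62 members were called higher and in liver 21, beside 1831 and 1186 of 12127 genes. On log2(TPM + 1) the all-gene medians were -0.47 and -1.21 and the members' medians 1.69 and 0.71. On this scale 60 members were called higher in kidney and 13 in liver, beside 1554 and 1004 of 12127 genes. Of the genes described in full, *Ndufaf7*, *Ndufc2*, *Atp5g2*, *Atp5s* and *Atp5sl* lost the call in kidney against lung on both TPM scales. The higher values in liver are thus stated relative to the bulk of genes.

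**Figure D2:**
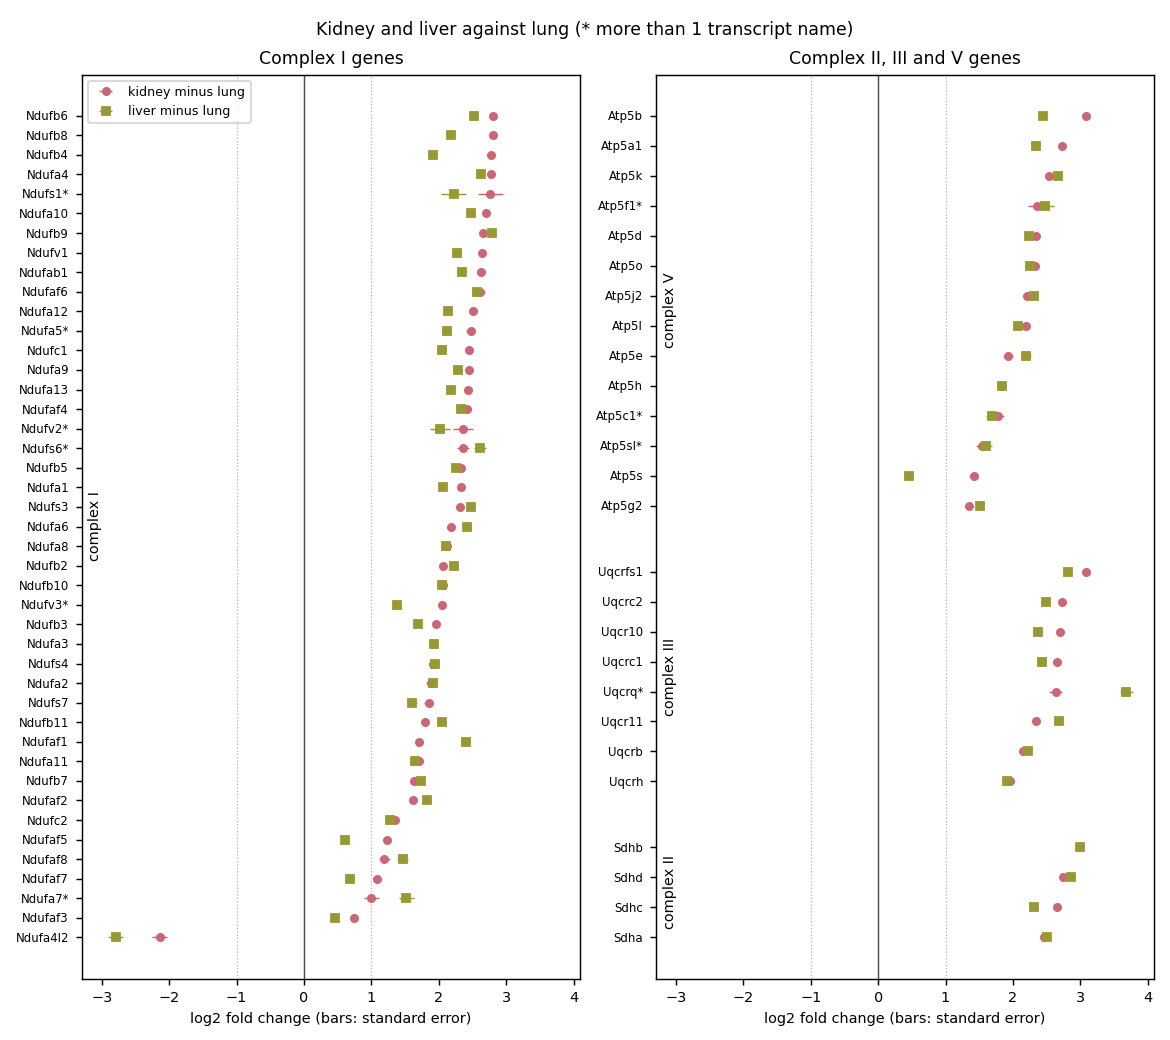
Log2 fold change of the tested members described here, kidney minus lung (circles) and liver minus lung (squares), with bars for the standard error and an asterisk for more than 1 transcript name. The left panel holds complex I genes and the right panel the 26 tested genes of complexes II, III and V, and *Ndufa4l2* is the only gene to the left of 0.

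For complex I the median log2 fold change was 2.25 in kidney against lung and 2.06 in liver against lung. Of the 44 tested, 42 were higher and 1 lower in kidney, and 40 were higher and 1 lower in liver. The median was 2.35 in kidney for 6 core subunits and 2.26 for 28 accessory subunits, and all of these were called higher in both tissues. It was 1.43 for 8 assembly factors, which help to build the complex without staying in it.

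Among the core subunits, *Ndufv1*, which binds NADH and the flavin that receives its electrons, ran from 25.5 to 56.3 CPM in lung (median 36.4), from 139 to 336 CPM in kidney (239.9) and from 114 to 315 CPM in liver (180.6). No kidney or liver library overlapped with lung, and the log2 fold changes were 2.65 (SE 0.05) and 2.28 (SE 0.05). *Ndufs3* had log2 fold changes of 2.31 in kidney and 2.48 in liver. *Ndufs7*, which holds the last iron-sulfur cluster, changed least of the core subunits with 1 name, by 1.85 in kidney and 1.60 in liver. Its values were 6.26 to 26.2 CPM in lung, 31 to 81.5 CPM in kidney and 24.6 to 69.0 CPM in liver, so that liver and lung overlapped.

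The accessory subunits, which surround the core and are needed for its assembly and stability, were spread from *Ndufa7* to *Ndufb6*. *Ndufb6* ran from 3.36 to 15.7 CPM in lung (median 9.87), from 24.9 to 112 CPM in kidney (69.2) and from 34.5 to 83.1 CPM in liver (58.6). It was higher by 2.80 in kidney and 2.53 in liver on the log2 scale, and neither tissue overlapped with lung. *Ndufb8* rose by 2.80 in kidney and 2.18 in liver. *Ndufc2* rose least of the accessory subunits with 1 name, by 1.34 (SE 0.05) in kidney and 1.28 (SE 0.05) in liver. Its value in liver turned to -0.085 with total counts and to -0.20 on both TPM scales. *Ndufa7*, with more than 1 name and a median of 2.12 CPM in lung, sat at the fold threshold with 1.0005 (SE 0.11) in kidney.

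The assembly factors were the least uniform group of complex I. *Ndufaf6* rose by 2.62 in kidney and 2.56 in liver, and *Ndufaf4* by 2.41 and 2.33. *Ndufaf7*, a methyltransferase, ran from 6.61 to 13.8 CPM in lung, from 15.3 to 24.7 CPM in kidney and from 8.40 to 20.8 CPM in liver. Kidney and lung did not overlap for *Ndufaf7*, with a log2 fold change of 1.08, whereas its value of 0.68 in liver was under the fold threshold. The kidney call was lost with DESeq2 size factors and the DESeq2 Wald test, at 0.94 with each, with total counts at 0.64, and on log2(TPM + 1) and log2(TPM + 0.1) at 0.52 and 0.55. *Ndufaf3* passed the fold threshold in neither tissue, at 0.74 (SE 0.05) in kidney and 0.45 (SE 0.05) in liver, although kidney exceeded lung in 45 of 47 strains and liver in 41. *Ndufaf5* had 1.23 in kidney and 0.60 in liver. With total counts, on log2(TPM + 1) and on log2(TPM + 0.1), the liver values turned to -0.92, -0.97 and -1.02 for *Ndufaf3* and to -0.70, -0.76 and -0.81 for *Ndufaf7*.

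*Ndufa4* and *Ndufa4l2*, a pair of related proteins, went opposite ways. *Ndufa4* ran from 23.8 to 58.1 CPM in lung (median 39.9), from 140 to 380 CPM in kidney (271.8) and from 156 to 343 CPM in liver (246.7), with no overlap, and rose by 2.77 and 2.63. *Ndufa4l2*, known as a target of hypoxia-inducible factor, ran from 2.48 to 21.9 CPM in lung (median 6.77), from 0.573 to 3.28 CPM in kidney (1.52) and from 0 to 3.58 CPM in liver (0.988). Lung exceeded kidney and liver in all 47 strains, although the ranges over libraries overlapped. The log2 fold changes were -2.14 (SE 0.11) in kidney and -2.80 (SE 0.12) in liver, and it was the only member called lower than in lung.

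All 4 complex II genes were higher in both tissues, with a median log2 fold change of 2.70 in kidney and 2.69 in liver. *Sdhb*, the iron-sulfur subunit, changed most, from 20.4 to 46.8 CPM in lung (median 31.9) to 148 to 313 CPM in kidney (258.7) and 163 to 361 CPM in liver (266.8). Its log2 fold changes were 2.99 (SE 0.04) and 2.996 (SE 0.04). *Sdha*, the flavoprotein that oxidizes succinate, had the highest CPM of the 4, with medians of 117 in lung, 642 in kidney and 685 in liver, and rose by 2.46 and 2.51. The membrane anchors *Sdhc* and *Sdhd* rose by 2.66 and 2.75 in kidney and by 2.31 and 2.87 in liver. For each of the 4 genes, no kidney or liver library reached down to the highest lung library.

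All 8 complex III genes were higher in both tissues, with medians of 2.64 in kidney and 2.46 in liver. *Uqcrfs1*, the Rieske iron-sulfur protein, ran from 9.59 to 38.3 CPM in lung (median 25.8), from 105 to 305 CPM in kidney (221.9) and from 111 to 287 CPM in liver (179.9). Its log2 fold changes of 3.08 (SE 0.06) and 2.81 (SE 0.06) were the largest of the complex III genes with 1 name. *Uqcrc2*, a core protein, rose by 2.72 in kidney and 2.49 in liver. *Uqcrh*, the hinge protein, rose least, by 1.96 (SE 0.04) in kidney and 1.91 (SE 0.04) in liver, and *Uqcrb* followed with 2.14 and 2.22.

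All 14 complex V genes tested were higher in kidney and 13 in liver, with medians of 2.21 and 2.22. *Atp5b* ran from 187 to 403 CPM in lung (median 273.6), from 1146 to 3022 CPM in kidney (2393) and from 1008 to 2400 CPM in liver (1475). Neither kidney nor liver overlapped with lung, and the log2 fold changes were 3.08 (SE 0.04) and 2.45 (SE 0.04). *Atp5a1* rose by 2.73 and 2.34. Its lung libraries lay between 186 and 370 CPM and its kidney libraries between 1029 and 2382 CPM. The medians were 2.35 in kidney and 2.23 in liver for the 5 genes of the catalytic head, and 2.27 and 2.28 for 6 genes of the stalk and membrane part.

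Within complex V, the c ring gene and the factor B gene changed least. *Atp5g2* ran from 19.9 to 48.3 CPM in lung, from 57.4 to 122 CPM in kidney and from 68.9 to 158 CPM in liver, with no overlap, and rose by 1.35 (SE 0.05) and 1.504 (SE 0.05). *Atp5s*, a coupling factor named factor B, rose by 1.42 (SE 0.07) in kidney and had 0.46 (SE 0.07) in liver, where 35 of 47 strains were higher than in lung. Its liver value turned to -0.91 with total counts, -0.91 on log2(TPM + 1) and -1.01 on log2(TPM + 0.1).

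The 10 tested members with more than 1 transcript name were all called higher in both tissues, with medians of 2.35 in kidney and 2.07 in liver, beside 2.33 and 2.21 for the 60 with 1 name. Their log2 fold changes ran from 1.0005 to 2.76 in kidney and from 1.38 to 3.68 in liver. The 4 with the highest counts were *Ndufv3*, *Atp5f1*, *Ndufa5* and *Atp5sl*. *Ndufv3*, a small subunit beside *Ndufv1*, rose by 2.05 in kidney and 1.38 in liver. *Ndufa5* rose by 2.47 and 2.12, *Atp5f1*, the b subunit of the peripheral stalk, by 2.35 and 2.47, and *Atp5sl* by 1.54 and 1.60. *Atp5sl* had -0.020 in liver on log2(TPM + 0.1). Low levels and tissue differences of usual size thus stood side by side in these 10 tested genes. Over 14 members with more than 1 name, the median of their median CPM was 0.783 in lung, 3.90 in kidney and 5.99 in liver. The filter at 1 CPM therefore favoured genes high in kidney or liver. With no filter on low counts, 72 of 75 members were higher in kidney and 69 in liver, beside 3439 and 6984 of 22652 genes.

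Kidney and liver differed little from each other under TMM scaling. No member was called higher in kidney, beside 20.8% of all genes. By limma-voom at an unadjusted p under 0.05, 33 members were higher in kidney and 17 lower, 0 and 1 of them past the fold threshold. The edgeR test called 0 higher, and DESeq2 called 1, *Atp5s*, at 1.07. A single member was lower in kidney, beside 15.6% of all genes. This was *Uqcrq*, a small complex III subunit with more than 1 name that is described here because of this call, at 1.46 to 7.76 CPM in kidney (median 3.58) and 3.69 to 12.7 CPM in liver (median 7.35). The groups overlapped, kidney was higher in 3 of 47 strains, and the log2 fold change was -1.05 (SE 0.09). The call was lost with DESeq2 size factors, the DESeq2 Wald test, total counts, both TPM scales, no filter on low counts and without the 24 strains with a library over 60% *Rn45s* and *Lars2*.

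Without the fold threshold, 34 members were higher and 17 lower in kidney than in liver, beside 44% and 43.9% of all genes, and the median was 0.08. The largest differences, picked out after their values were seen, were 0.96 (SE 0.07) for *Atp5s*, 0.86 (SE 0.04) for *Ndufb4* and -0.69 (SE 0.04) for *Ndufaf1*. *Ndufb4*, an accessory subunit of the membrane arm, was higher in kidney in 47 of 47 strains, with medians of 126.9 and 71.7 CPM, and no other member was. *Ndufaf1*, an assembly factor for the membrane arm, was higher in liver in every strain, with medians of 21.5 CPM in kidney and 34.8 CPM in liver. The scale changed this comparison. With total counts the all-gene median was 0.95 and the members' median 1.02. With the fold threshold, 39 members were then called higher in kidney, beside 5795 of 12127 genes. On log2(TPM + 1) the medians were 0.72 and 1.01, and 37 members were called higher, beside 4200 genes.

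Summing TPM over the subunits of a complex gives its share of the whole transcript pool in a library. Complex I, with 36 subunit genes, had a median sum of 3856 TPM in lung (range 736 to 5035), 12204 in kidney (5532 to 17560) and 5680 in liver (1605 to 8842). Complex II had median sums of 602, 2526 and 1266 TPM, complex III 1689, 5844 and 2959 TPM, and complex V, with 15 subunit genes, 3814, 13706 and 5974 TPM. Within a strain, the ratio of kidney to lung had a median of 3.33 for complex I, 4.51 for complex II, 3.58 for complex III and 3.79 for complex V, and it was over 1 in all 47 strains for each complex. The ratio of liver to lung had medians of 1.47, 2.14, 1.68 and 1.52 and was over 1 in 41, 45, 44 and 42 strains. The ratio of kidney to liver had medians of 2.13, 1.96, 2.02 and 2.21.

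TPM forces every library to the same sum, and the ribosomal RNA genes are part of it. After the TPM table was rescaled by TMM, the ratio of liver to lung had medians of 4.11, 6.14, 4.83 and 4.36 and was over 1 in all 47 strains, and the ratio of kidney to liver had medians of 1.27, 1.14, 1.19 and 1.29. Complex II had the highest median ratio of kidney and of liver to lung on both scales, a difference between complexes that was not tested.

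**Figure D3:**
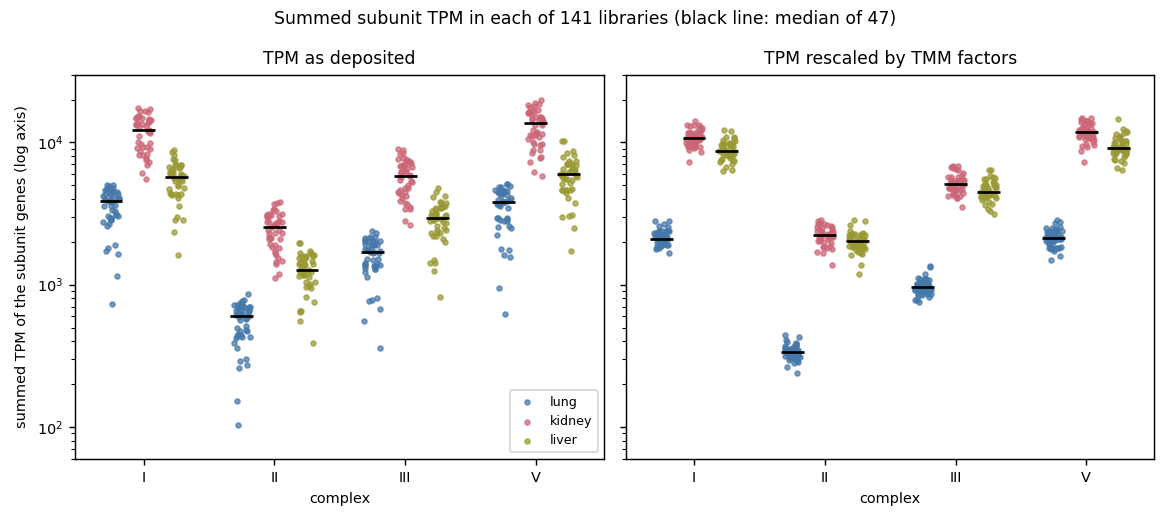
Summed TPM of the subunit genes of each complex in each library on a log axis, as deposited and after TMM rescaling. Each point is 1 library, the black line is the median of 47, and kidney lies highest as deposited, with a complex I median of 12204 TPM against 3856 in lung and 5680 in liver.

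Other genes of the pathway, from lists chosen with earlier results of these data known, were set beside the members. Counts against lung are to be read beside the 20.6% higher and 25.5% lower in kidney, and 23.9% and 31% in liver, over all genes. Of 15 complex IV genes tested, 10 were higher and 2 lower in kidney than in lung, and 11 and 4 in liver. *Cox5a* rose by 2.78, in kidney, whereas *Cox4i2* and *Cox6a2*, which replace common subunits in lung and in muscle, were at -5.12 and -2.75. Of 17 genes for electron carriers and ATP exchange, 13 were higher and 1 lower in kidney, and 11 and 2 in liver. In kidney *Cycs*, the cytochrome c gene, rose by 3.59, *Slc25a5*, an ADP/ATP carrier, by 3.03 and *Cyc1*, the cytochrome c1 gene of complex III whose name falls outside the rule, by 2.95. All 18 tricarboxylic acid cycle genes tested were higher in kidney, and 13 in liver, among them in kidney *Pcx* by 3.01 and *Suclg1* by 2.97.

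Of 22 assembly factors with other names, 17 were higher in kidney than in lung and 17 in liver, and in kidney *Acad9* rose by 2.29, *Taco1* by 2.08 and *Sdhaf1* by 2.05. Of 12 ubiquinone synthesis genes, 9 were higher in kidney and 9 in liver, with *Coq9* in kidney at 2.84, *Pdss1* at 2.53 and *Pdss2* at 2.40. Of 14 regulators of mitochondrial biogenesis, 9 were higher and 2 lower in kidney, and 8 and 0 in liver. In kidney *Esrrg*, an orphan receptor of the oestrogen-related family, was at 4.15, *Ppara*, the fatty acid receptor, at 3.92 and *Ppargc1b*, a coactivator of both, at 2.40. *Esrrg* had a median of 2.95 CPM in kidney, 0.144 in lung and 0.0868 in liver, and it had 3 counts or fewer in 37 of 47 lung and 42 of 47 liver libraries. It could pass the filter on low counts only through its kidney libraries, so the filter favoured its call in kidney.

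Promoters were searched for short motifs of factors known to bind genes of this chain, in 300-base windows of RefSeq on GRCm38.p6, from 250 bases before to 50 after the start. An entry was found for 61 members and for 27025 genes in all. Both strands were searched, and a gene counted once. GCATGCGC, the core of the site of nuclear respiratory factor NRF1, stood in 18% of the members, beside 3.05% of all genes and 5.25% of 9145 tested genes with an entry. CCGGAAG, an ETS core, stood in 24.6%, beside 9.93% and 17.9%. AAGGTCA, the site of oestrogen-related receptors, stood in 13.1%, beside 5.38% and 3.93%, and AAGATGGC, a YY1 core, in 16.4%, beside 3.19% and 4.92%. CCAAT stood in 42.6%, beside 41.1% and 40.9%, and TATAAA in 8.2%, beside 15.7% and 8.93%. A match is a run of letters and does not show that a factor binds there.

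One stretch per complex is shown, the 150 bases before the start of a member that holds a motif, with the motifs in capitals. *Ndufa11* (chr17:56717612-56717761, plus strand) holds the NRF1 core in an overlapping pair that reads the same on both strands, and *Sdhb* (chr4:140961121-140961270, plus strand) holds it as a single copy with a CCAAT box. *Uqcrh* (chr4:116075071-116075220, minus strand) and *Atp5e* (chr2:174464102-174464251, minus strand) hold an ETS core and CCAAT boxes. All are on GRCm38.p6.
Ndufa11: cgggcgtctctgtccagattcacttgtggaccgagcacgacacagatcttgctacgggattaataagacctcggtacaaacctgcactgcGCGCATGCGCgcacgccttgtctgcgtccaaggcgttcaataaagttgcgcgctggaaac
Sdhb: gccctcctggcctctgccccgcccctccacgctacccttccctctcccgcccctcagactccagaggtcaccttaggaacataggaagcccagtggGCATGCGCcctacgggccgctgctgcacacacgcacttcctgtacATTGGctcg
Uqcrh: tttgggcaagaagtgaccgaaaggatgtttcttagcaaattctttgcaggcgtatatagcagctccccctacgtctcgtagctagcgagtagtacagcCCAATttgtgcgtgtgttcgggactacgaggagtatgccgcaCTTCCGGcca
Atp5e: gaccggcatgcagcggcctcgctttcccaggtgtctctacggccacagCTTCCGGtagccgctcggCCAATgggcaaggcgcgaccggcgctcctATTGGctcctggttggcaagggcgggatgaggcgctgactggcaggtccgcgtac

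The next question was how far the chain varied between strains within a tissue. The SD of log2 CPM over 47 strains had a median of 0.31 over the members in lung, 0.28 in kidney and 0.27 in liver, beside 0.38, 0.41 and 0.52 over all genes tested. Among genes that averaged 10 CPM or more in the tissue, the medians were 0.29, 0.28 and 0.26 for the members and 0.26, 0.27 and 0.31 for all such genes. The 4 complex II genes had a median SD of 0.23 in lung, 0.23 in kidney and 0.25 in liver, and no test was made against the other complexes. Members with more than 1 name had a median SD of 0.82 in lung, 0.56 in kidney and 0.49 in liver at their low counts.

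A strain effect shared by the 3 tissues was called for 50 of the 70 members at q of at most 0.1, by the limma-voom F-test of the strain terms, beside 58.9% of all genes. The number was 30 of 44 in complex I, 3 of 4 in complex II, 7 of 8 in complex III and 10 of 14 in complex V. It was 53 of 70 without CC032 and CC042, beside 60.02% of all genes tested, and 38 by edgeR's quasi-likelihood test, beside 44.55%. With total counts the number was 34, beside 30.63%, and on log2(TPM + 1) it was 28, beside 25.88%. At q of at most 0.01 it was 28, with no share over all genes given. It fell to 22 of 71 when the 24 strains with a library over 60% *Rn45s* and *Lars2* were left out, beside 29.2% of all genes then tested, a step chosen after seeing the data that leaves 23 strains.

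The members with a strain effect and the largest SD at 10 CPM or more were *Atp5f1*, *Atp5e*, *Ndufa12*, *Ndufa11*, *Ndufb7*, *Ndufb6*, *Uqcr11* and *Ndufa2*. The low ends of several of them fell in the same libraries. In lung, CC055 had the lowest values of *Atp5e* (4.15 CPM, median 20.2), *Ndufa2* (5.43 CPM, median 14.1) and *Ndufb6* (3.36 CPM, median 9.87), and CC033 had the lowest of *Ndufa11* (5.43 CPM), *Ndufb7* (4.13 CPM) and *Uqcr11* (6.19 CPM). *Rn45s* and *Lars2* took 83.3% of counts in the CC055 lung library. The CC033 lung library correlated with its own kidney and liver libraries at 0.066 and 0.069 over all genes tested, and with the CC053 kidney library at 0.347. The part of these library traits in the low values was not tested. In kidney, CC044 was lowest for *Atp5e* (30.1 CPM), *Ndufa2* (20.4 CPM), *Ndufb7* (25.8 CPM) and *Uqcr11* (59.4 CPM). For none of these 6 genes was the strain with the lowest value in lung also the lowest in kidney or liver.

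*Atp5sl*, related to factor B, had the smallest q of the members for a strain effect, at 5.6e-22 by limma-voom. It ran from 0.32 to 5.02 CPM in lung (median 2.56), from 1.21 to 11.9 CPM in kidney (7.72) and from 0.631 to 21.2 CPM in liver (8.74). The SD of its log2 CPM was 1.01, 1.04 and 1.42. CC038 was among the 3 lowest strains in every tissue, at 0.403, 1.48 and 0.631 CPM, and CC041 among them in kidney and liver, at 1.31 and 0.779 CPM. CC032 was highest of all in kidney at 11.9 CPM and at 3.86 CPM in lung, and at 1.03 CPM in the liver library that stood apart.

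*Ndufa12*, an accessory subunit of the peripheral arm, followed with a q of 1.2e-14 by limma-voom. It ran from 7.43 to 34.5 CPM in lung (median 19.1), from 37.9 to 246 CPM in kidney (111.6) and from 33.5 to 154 CPM in liver (88.4). CC020 was the lowest strain in all 3 tissues, at 7.43, 37.9 and 33.5 CPM. The highest strain differed, CC055 in lung, CC025 in kidney and CC011 in liver.

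Counts of *Atp5f1* were nearly missing from 1 strain. It is a gene with more than 1 transcript name, at a median of 31.6 TPM in kidney beside 1247 TPM for *Atp5l* of the same part. Whether its counts stand for all reads of the gene was not tested, so the values below describe the listed counts only. CC017 had 0.101 CPM in lung, 0.185 CPM in kidney and 0 in liver, beside medians of 3.19, 18.5 and 16.4 CPM. A count of 0 in the CC017 liver library allows up to 0.284 CPM before TMM scaling, with counting error alone considered. The next lowest lung values were close, 0.413 CPM in CC033 and 0.751 CPM in CC062. A count of 3 in lung was a median of 0.321 CPM before TMM scaling, which divides by a factor with a median of 1.94 there. The next lowest kidney value was 2.24 CPM in CC032, and the next lowest liver value was 7.43 CPM in CC024.

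**Figure D4:**
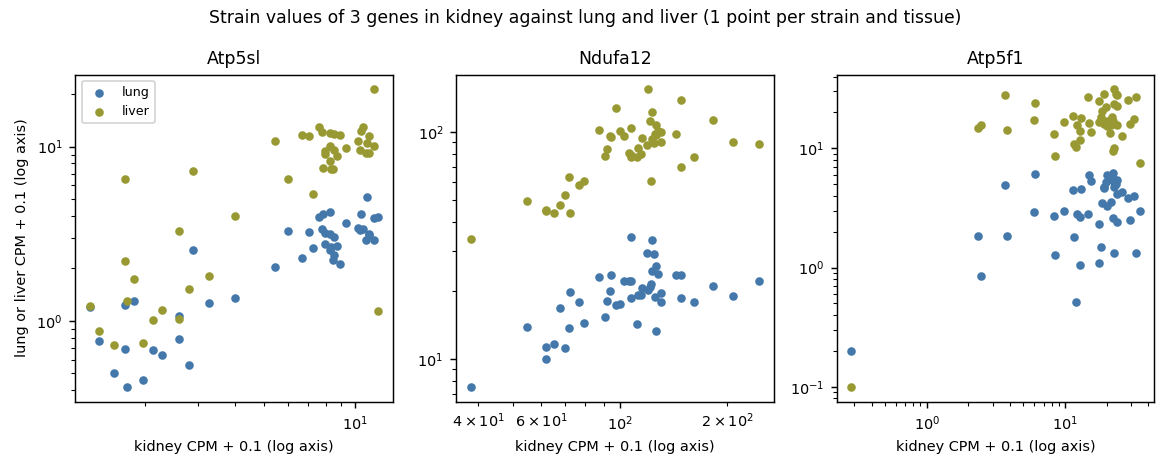
CPM plus 0.1 of *Atp5sl*, *Ndufa12* and *Atp5f1* in lung (blue) and liver (olive) against kidney, on log axes, with 1 point per strain and tissue. CC020 lies lowest in all 3 tissues for *Ndufa12*, CC017 lies at the lower left for *Atp5f1*, and the CC032 liver point of *Atp5sl* stands at 1.03 CPM beside the highest kidney value.

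To see whether strains kept their order from tissue to tissue, log2 CPM was correlated (Pearson's r) over the 47 strains with 100000 permutations, and q was taken over all genes and all 3 pairs of tissues. The correlation was positive at q of at most 0.1 for 9 of 70 members between kidney and lung, 3 of 69 between liver and lung and 21 of 69 between kidney and liver. Over all genes the shares were 17.3%, 14.2% and 20.2%. By Spearman's rho the numbers were 8, 3 and 15, and without CC032 and CC042 they were 9, 3 and 21 by r. No share over all genes is given for these settings. The median r of the members was 0.19, 0.11 and 0.29, beside 0.14, 0.12 and 0.16 over all genes. In liver 4 strains had 0 CPM of *Ndufa4l2*, below a gap of over 1 on the log2 scale to the other 43, and no r with liver was given. Its liver median was 0.988 CPM, so this gap lies at the floor of counting and shows no groups of strains.

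*Atp5sl* was among the members counted in all 3 pairs, but no r over all strains is given for it, because 12 strains lay below a gap in its values in all 3 tissues. The choice was made after the data were seen, since the gap did not reach the 1 on the log2 scale by which genes were set apart. The widest gap in its sorted values, with at least 3 strains on each side, was 0.583 on the log2 scale in lung, 0.441 in kidney and 0.588 in liver. It left 15 strains below in lung, 16 in kidney and 13 in liver, and 17 in at least 1 tissue. Within the 16 strains below the kidney gap, r was 0.36 between kidney and lung (permutation p = 0.18, q = 0.27), 0.69 between liver and lung (permutation p = 0.0028, q = 0.017) and 0.42 between kidney and liver (permutation p = 0.11, q = 0.21). Within the 31 strains above it, r was 0.43 (permutation p = 0.017, q = 0.05), -0.04 (permutation p = 0.82, q = 0.82) and -0.06 (permutation p = 0.76, q = 0.82) for the same pairs. These 31 strains include CC032, at 11.9 CPM in kidney and 1.03 CPM in the liver library that stood apart. They also include CC042, whose lung library stood apart. No r within a side was taken without these strains, so the values with liver do not show that the upper strains lack a shared order. Spearman's rho was 0.36, 0.68 and 0.45 below the gap (permutation p = 0.18, 0.0051 and 0.08, q = 0.26, 0.031 and 0.24) and 0.28, 0.22 and 0.10 above it (permutation p = 0.13, 0.24 and 0.58, q = 0.25, 0.29 and 0.58), with q taken over the 6 relations. Of the 6 relations within a side 2 had q of at most 0.1 by r and 1 by rho.

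A permutation p of 1e-05 is the smallest that can be given. *Ndufa12* had r of 0.63 (permutation p = 3e-05, q = 0.00088) between kidney and lung, 0.67 (permutation p = 1e-05, q = 0.00038) between liver and lung and 0.72 (permutation p = 1e-05, q = 0.00038) between kidney and liver. The matching rho values were 0.53 (permutation p = 0.00019), 0.58 (permutation p = 1e-05) and 0.58 (permutation p = 2e-05). Without the 2 farthest strains r was 0.56, 0.56 and 0.70. *Atp5f1* had r of 0.55, 0.60 and 0.64, with permutation q of 0.011, 0.0094 and 0.051, but rho of 0.30, 0.27 and 0.23, with permutation q of 0.19, 0.25 and 0.36. Without the 2 farthest strains its r fell to 0.27, 0.28 and 0.06, so that the relation rests on those strains. The widest gap in its values was 0.643 in kidney, with 5 strains below, too few for an r of their own.

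Other measures of the libraries moved with the members within a tissue, as slopes of the same voom values on each measure, called at q of at most 0.1 by limma. In kidney, 29 of 70 members were higher where the summed proximal tubule genes were higher (12548 to 39933 CPM, 7 of 7 genes with a median above 0), beside 7.91% of all genes. In kidney 7 members were lower where leukocyte genes were higher (5.63 to 152 CPM, 7 of 7 genes), beside 1.75% of all genes. These sums follow their most abundant genes. *Kap* and *Lrp2* had kidney medians of 15067 and 6721 CPM beside a median proximal tubule sum of 27613 CPM. *Lyz2* had 14.9 CPM beside a median leukocyte sum of 17.7 CPM. A slope on a sum therefore does not show that a whole list moved with the members. In lung, 17 members were higher where cardiac muscle genes were higher (116 to 988 CPM, 8 of 9 genes, with *Tnnt2* at a median of 0), beside 2.32% of all genes, and 14 where skeletal muscle genes were higher (2.34 to 976 CPM, 6 of 6 genes), beside 3.73%. In lung 8 members were lower where endothelial genes were higher (730 to 1475 CPM, 6 of 6 genes), beside 4.73% of all genes. Each of the other marker lists called at most 1 member in a tissue. The part of these cells in the strain differences was not tested.

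The share of *Rn45s* and *Lars2* moved with the members as well. In liver, 34 members were lower where the share was higher, beside 4.82% of all genes, and in kidney 14 were lower, beside 2.13%. In lung limma called 0 members on the share, and at an unadjusted p under 0.05 there were 2 higher and 9 lower. The deviation of a library is the median over the 70 members of their difference from the tissue mean. In liver it ran from -0.40 in CC004 to 0.42 in CC021, with a median of 0.17 in the 10 libraries with the lowest shares and -0.08 in the 10 with the highest. In kidney it ran from -0.46 in CC020 to 0.33 in CC039, and in lung from -0.50 in CC055 to 0.42 in CC028. The shares themselves were not alike in the tissues of a strain, with r of -0.02 for kidney and lung, 0.14 for liver and lung and -0.06 for kidney and liver over 47 strains, given as a description. The part of the share in the strain differences was not tested.

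**Figure D5:**
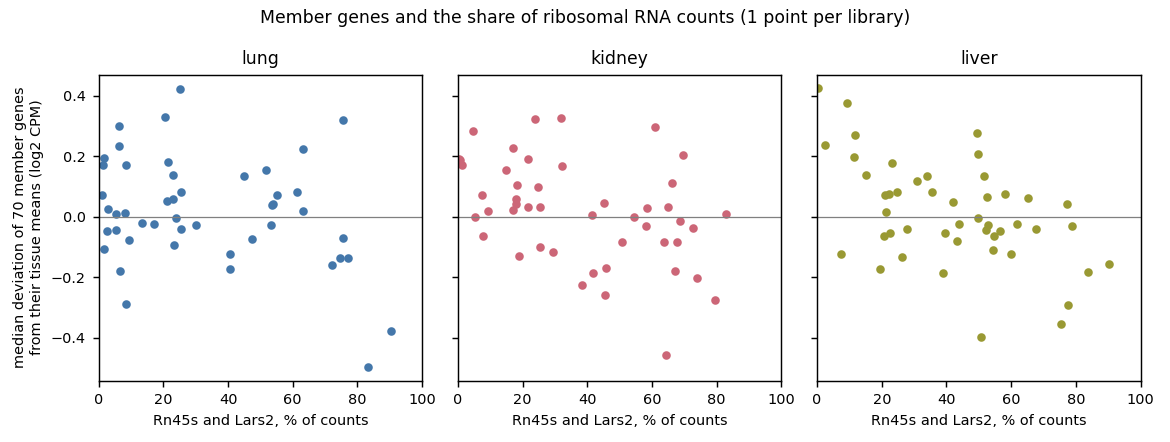
Median deviation of the 70 tested members from their tissue means (log2 CPM) against the percentage of counts taken by *Rn45s* and *Lars2*, with 1 point per library and 1 panel per tissue. In liver the 10 libraries with the lowest shares have a median deviation of 0.17 and the 10 with the highest -0.08.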

How the data were processed

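RNA was sequenced from lung, kidney and liver of 47 CC strains as 50-base single-end reads after ribosomal depletion. The authors mapped reads to strain-specific pseudo-genomes and RefSeq pseudo-transcriptomes (Build37, mm9) with RSEM and STAR 2.5.3a and used uniquely aligned reads. The files deposited by the authors hold expected counts, TPM and FPKM per gene, with 25 expected counts that were not whole. The expected counts deposited by the authors were rounded and tested, the TPM values deposited by the authors gave levels and sums, and the FPKM values deposited by the authors were not used.

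The 12127 genes over 1 CPM in 30% or more of the libraries were fitted with limma 3.58.1 and voom weights, TMM factors from edgeR 4.0.16, and terms for tissue and strain, in R 4.3.3. Benjamini-Hochberg q-values were taken over all genes tested. Calls needed q of at most 0.1 and a log2 fold change of 1 or more in either direction, and the strain effect q alone. The study's fit also held batch, for which no label was given here. Strain was a block because the 3 tissues of a strain came from 1 mouse, and the library's best match was its own strain in 33, 39 and 42 of 47 strains from kidney to lung, liver to lung and kidney to liver, and in 34, 33 and 44 the other way. DESeq2 1.42.0 and edgeR's quasi-likelihood test were alternatives. The fit was tested on simulated data.

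The 50-base stretches of Ensembl transcripts within 20% of the length in the files were searched in NCBIM37, with hits under 10 bases past an exon junction taken as the same place. A value was obtained for 71.0% of all genes, too few for a comparison with all genes.

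Described in full were the members of each complex with the largest and smallest kidney to lung changes, the Sdh genes, paralogs, the most variable members, members of opposite direction or called against lung in neither tissue, and the 4 most abundant with more than 1 transcript name. Of other lists, the 3 genes with the largest changes were named. Values of some single genes are not reported here, although counts and medians include them. Members, lists and this rule were chosen with earlier results of these data known.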

Additional observations from a re-analysis of the deposited data

How the results depend on the processing

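Of 1260 values of named genes under the alternatives, 1050 kept their direction and their side of the threshold, 72 lost the call, 69 gained one and 69 changed sign. In liver against lung, with total counts, on log2(TPM + 1) and on log2(TPM + 0.1), *Ndufc2* turned to -0.085, -0.20 and -0.20, *Ndufaf3* to -0.92, -0.97 and -1.02, *Ndufaf7* to -0.70, -0.76 and -0.81 and *Atp5s* to -0.91, -0.91 and -1.01, and *Atp5sl* to -0.020 on log2(TPM + 0.1). In kidney against liver, 12 of the named members that were below 0 were above 0 with total counts, on log2(TPM + 1) and on log2(TPM + 0.1), given in that order. *Atp5e* was at 0.68, 0.70 and 0.70, *Atp5f1* was at 0.77, 0.72 and 0.79, *Atp5g2* was at 0.77, 0.79 and 0.80, and *Atp5sl* was at 0.93, 0.75 and 0.98. *Ndufa2* was at 0.90, 0.92 and 0.93, *Ndufb7* was at 0.83, 0.85 and 0.85, *Ndufs3* was at 0.77, 0.79 and 0.79, and *Sdha* was at 0.89, 0.92 and 0.92. *Sdhb* was at 0.93, 0.95 and 0.95, *Sdhd* was at 0.82, 0.84 and 0.84, *Uqcr11* was at 0.58, 0.61 and 0.61, and *Uqcrb* was at 0.86, 0.89 and 0.89. With DESeq2 size factors *Atp5sl* was at 0.047, *Ndufa2* was at 0.070, *Ndufb7* was at 0.0031, *Sdha* was at 0.060, *Sdhb* was at 0.097 and *Uqcrb* was at 0.030. With the DESeq2 Wald test *Atp5sl* was at 0.041, *Ndufa2* was at 0.071, *Ndufb7* was at 0.0037, *Sdha* was at 0.054, *Sdhb* was at 0.092 and *Uqcrb* was at 0.027. With no filter on low counts *Atp5sl* was at 0.021, *Ndufa2* was at 0.034, *Sdha* was at 0.039, *Sdhb* was at 0.057 and *Uqcrb* was at 0.0084. *Atp5sl* was at 0.13 with no replicate block, and *Sdhb* at 0.011 without CC032 and CC042 and 0.011 without *Rn45s* and *Lars2*.

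The median in kidney against lung was 1.92 with total counts, 1.69 on log2(TPM + 1) and 1.82 on log2(TPM + 0.1). In liver against lung these 3 scales gave 21, 13 and 15 members higher, beside 1186, 1004 and 1104 of 12127 genes, and medians of 0.85, 0.71 and 0.73. On log2(TPM + 0.1) 3 members were lower, beside 7799 genes. The medians were 1.95 with DESeq2 size factors and 1.95 with the DESeq2 Wald test. In kidney against liver, 39, 37 and 41 members were higher on the 3 scales, beside 5795, 4200 and 5696 of 12127 genes. The members' medians were 1.02, 1.01 and 1.04. Only *Atp5s* was higher with DESeq2 size factors and with the DESeq2 Wald test. The same held with no filter on low counts and without the 24 strains with a library over 60% *Rn45s* and *Lars2*. *Uqcrq* was not called in any of these 7, so that 0 were lower. With no fold threshold 34 were higher and 17 lower. The strain effect was called for 28 members on log2(TPM + 1), beside 25.88% of all genes. At q of at most 0.01 the strain effect was called for 28, with no share over all genes given. It was called for 22 without those 24 strains, beside 29.24%. Positive correlations numbered 4 for kidney and lung and 12 for kidney and liver on log2(TPM + 1), with no share over all genes given. Rescaled by TMM, the summed TPM ratios of liver to lung were 4.11, 6.14, 4.83 and 4.36 for complexes I, II, III and V.

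With no replicate block, 67 members were higher in kidney than in lung and 65 in liver, beside 2504 and 2870 of 12127 genes. Their medians were 2.33 and 2.21, and no named call changed. Leaving out CC032 and CC042 changed no named call. Leaving out *Rn45s* and *Lars2*, or the 24 strains, was chosen after seeing the data. A count of 3 was a median of 0.321 CPM in lung, 0.364 in kidney and 0.288 in liver before TMM scaling. TMM scaling divides such values by factors with medians of 1.94, 1.32 and 0.643 in the same order. This floor limits *Ndufs5*, *Ndufs8*, *Atp5g1*, *Atp5g3* and *Atp5j*.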
